A study of Homo sapiens with 8 samples.

Results

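Genes that interferons switch on in infected cells, 10 in number, are described here in NB4 cells. NB4 is a human line from acute promyelocytic leukaemia with the PML-RARA fusion, and it matures along the granulocyte lineage in all-trans retinoic acid (ATRA). The genes are MX1, MX2, RSAD2, CMPK2, BST2, SAMD9, SAMD9L, DDX60, EPSTI1 and XAF1, 10 of the 22627 gene symbols in the tables and 10 of the 11052 whose mean over all groups reached 1 FPKM (a fragment count scaled to transcript length and to the mapped fragments). They were chosen by name, and the FPKM of each gene's RefSeq transcript models was summed. MX1 passed the minimum narrowly, with a mean of 1.06 FPKM. MX1 and XAF1 passed it only through their value in shTFEB ATRA cells, the group in which they are high.

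The cells formed 4 groups, all of them NB4 cells that carry a lentiviral short hairpin RNA: cells with a hairpin against TFEB (shTFEB) in 1 µM ATRA, cells with a scrambled hairpin (shScr) in 1 µM ATRA, cells labelled shTFEB in ethanol vehicle, and shScr cells in ethanol vehicle. Exposure lasted 72 h in every group. TFEB is a transcription factor of lysosomal and autophagy genes. The labels list 2 samples per group, 8 in all, do not say that these came from separate cultures, and name no second hairpin or clone. The deposited tables give 1 FPKM per transcript model and group, so neither a spread between samples nor a test was possible. Every difference below is therefore a ratio between 2 group values with no replicate check, and no p-value is given.

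TFEB itself, the target of the hairpin, measured 8.44 FPKM in shTFEB ATRA cells, 19.4 FPKM in shScr ATRA cells, 1.35 FPKM in vehicle cells labelled shTFEB and 1.20 FPKM in shScr vehicle cells. Under ATRA its level in shTFEB cells was 0.436 of that in shScr cells, whereas in vehicle it was not lower in the group labelled shTFEB, which is called by its label throughout. Both shScr ATRA titles also contain the word vehicle, and that group was assigned from the treatment field. Depth relative to shScr vehicle, read from the upper bounds of models listed at 0 in both groups, was 0.911 in shTFEB ATRA, 1.05 in shScr ATRA and 1.17 in vehicle cells labelled shTFEB. Of the promyelocyte markers, MPO had 594, 662, 2462 and 3871 FPKM in the order shTFEB ATRA, shScr ATRA, labelled shTFEB vehicle and shScr vehicle, while ELANE, another defining marker, was listed at 0 in every group but the vehicle group labelled shTFEB, at 0.0456 FPKM. The maturation marker ITGAM had 54.6 FPKM in shTFEB ATRA and 83.1 FPKM in shScr ATRA, against 5.63 and 2.18 FPKM in vehicle cells labelled shTFEB and shScr.

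As background, type I interferons bind the receptor chains IFNAR1 and IFNAR2, whose kinases JAK1 and TYK2 phosphorylate transcription factors of the STAT family. With IRF9 these form the complex ISGF3, which binds the interferon-stimulated response element (ISRE) in promoters of antiviral genes. The products act directly on virus or on the infected cell: some trap or block viral particles, some deplete or alter nucleotides, and some sense RNA or stop translation. In acute promyelocytic leukaemia cells, ATRA is known to raise interferon-regulated genes along with maturation genes.

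The promoters are shown because the ISRE is the sequence through which ISGF3 acts. RefSeq promoter windows (assembly GRCh38.p14, 250 bases before to 50 bases after the transcript start) were matched by symbol for 9 of the 10 genes, all but MX2. The ISRE core was searched on both strands as GAAA, any 2 bases and GAAA, and its matches are in capitals in the following stretches, which are written 5′ to 3′ on the strand of the gene. A match on the opposite strand appears as TTTC, any 2 bases and TTTC.
RSAD2 (chr2:6877607-6877666, plus strand): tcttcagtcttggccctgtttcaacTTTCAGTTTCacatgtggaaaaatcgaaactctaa
SAMD9 (chr7:93118081-93118140, minus strand): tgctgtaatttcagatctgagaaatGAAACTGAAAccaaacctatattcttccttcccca
EPSTI1 (chr13:42992257-42992316, minus strand): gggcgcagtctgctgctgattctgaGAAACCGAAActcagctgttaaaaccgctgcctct
BST2 (chr19:17405720-17405785, minus strand): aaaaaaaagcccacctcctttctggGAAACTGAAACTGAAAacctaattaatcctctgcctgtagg
DDX60 (chr4:168318771-168318865, minus strand): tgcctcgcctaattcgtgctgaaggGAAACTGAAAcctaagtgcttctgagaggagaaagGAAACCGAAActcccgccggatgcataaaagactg
DDX60L (chr4:168480508-168480597, minus strand): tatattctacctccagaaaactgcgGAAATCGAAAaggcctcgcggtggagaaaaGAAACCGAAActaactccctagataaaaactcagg
MX1 (chr21:41420544-41420582, plus strand): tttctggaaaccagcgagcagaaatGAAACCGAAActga
The last stretch belongs to 1 of several MX1 windows, and its match lies after the transcript start, at 12 to 21. Another MX1 window held a match on the opposite strand at -196 to -187. DDX60L, the neighbouring relative of DDX60, is shown for comparison with DDX60. In DDX60 the matches lay at -88 to -79 and -53 to -44 from the start, and in DDX60L at -80 to -71 and -50 to -41. BST2 carried 2 overlapping matches. In all, 6 of the 9 genes (BST2, DDX60, EPSTI1, MX1, RSAD2 and SAMD9) held the core in at least 1 window, against 4.38% of 27305 genes in the table. The letters were not in the windows of CMPK2, SAMD9L or XAF1. The gamma-activated site, searched as TTCNNNGAA, was found in 4 of the 9 genes and in 9.38% of all genes, and in BST2, EPSTI1 and MX1 at least 1 of its matches overlapped an ISRE match. Neither the retinoid direct repeat, AGGTCA and a second AGGTCA 5 bases on, nor the E-box CACGTG of the TFEB family was found in any of the 9, against 0.00732% and 8.77% of all genes. At such low shares, absence from 9 genes is not informative. A match is a description of these letters and not a binding measurement.

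All 10 genes had their highest level in shTFEB ATRA cells. The share of all genes with their highest level there was not counted. The summed FPKM of the 10 was 1048 in shTFEB ATRA, 288 in shScr ATRA, 122.6 in vehicle cells labelled shTFEB and 123.9 in shScr vehicle. BST2 was the largest contributor to each sum. Without it the sums were 646, 148, 32.6 and 36.6 FPKM in the same order. In both vehicle groups 6 of the 10 genes were under 1 FPKM, compared with 0 in shTFEB ATRA and 2 in shScr ATRA. No share of all genes under 1 FPKM was counted beside these. More expressing cells and more RNA per cell cannot be told apart in such bulk samples.

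**Figure D1:**
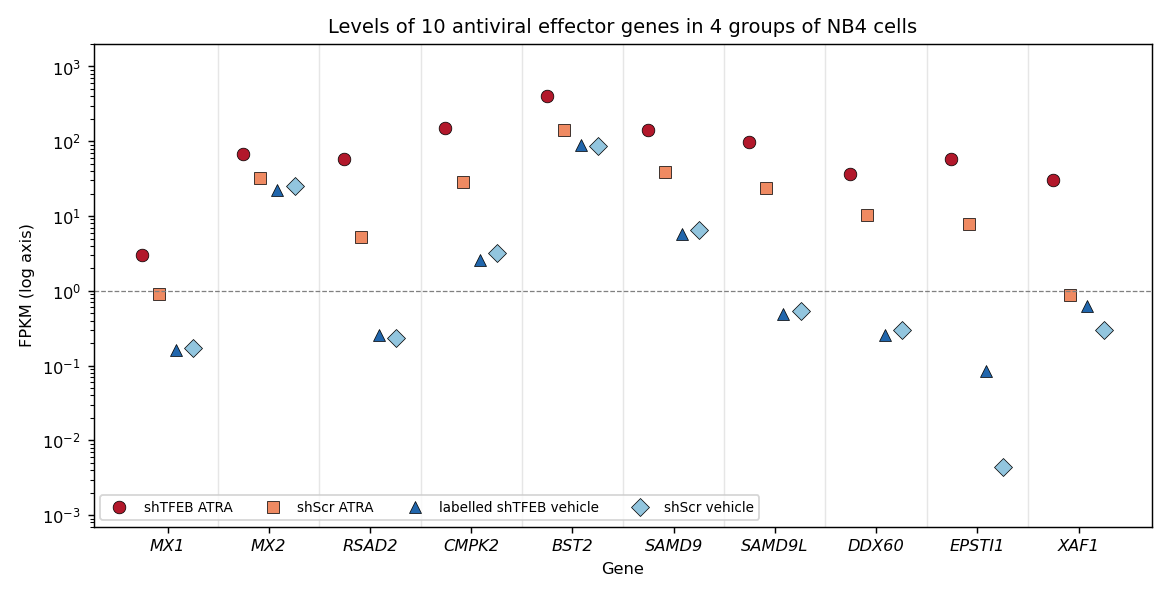
FPKM (log axis) of each gene in the 4 groups, 1 point per group value, with a dashed line at 1 FPKM; there is no error bar because each group has 1 deposited value. For every gene the shTFEB ATRA point is the highest, and the vehicle points lie close together except for EPSTI1 and XAF1.

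The MX genes encode dynamin-like GTPases that assemble around viral components. MX1, which blocks influenza viruses among others, had 2.995 FPKM in shTFEB ATRA and 0.906 FPKM in shScr ATRA, against 0.160 FPKM in vehicle cells labelled shTFEB and 0.173 FPKM in shScr vehicle. MX2, which acts on HIV at the nuclear pore, had 68.2 and 31.9 FPKM in shTFEB and shScr ATRA cells, and 22.4 and 25.4 FPKM in the vehicle groups labelled shTFEB and shScr. MX2 was thus present in every group, while MX1 was low in all of them. Under ATRA the shTFEB level was 3.31 times the shScr level for MX1 and 2.14 times for MX2. The genes lie next to each other on chromosome 21 (hg19, 42792520 to 42831141 for MX1 and 42733950 to 42780869 for MX2), 11.7 kb apart.

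RSAD2 and CMPK2 are neighbours that act on nucleotides. RSAD2 encodes viperin, a radical enzyme that converts CTP into a chain terminator of viral RNA synthesis, and CMPK2 encodes a mitochondrial nucleotide kinase. RSAD2 had 58.2 FPKM in shTFEB ATRA and 5.20 FPKM in shScr ATRA, against 0.258 and 0.231 FPKM in vehicle cells labelled shTFEB and shScr. CMPK2 had 149 FPKM in shTFEB ATRA and 28.5 FPKM in shScr ATRA, against 2.58 and 3.24 FPKM in vehicle cells labelled shTFEB and shScr. Summed over models, both were higher in ATRA than in vehicle with either hairpin, with shTFEB over shScr ratios under ATRA of 11.2 for RSAD2 and 5.23 for CMPK2. They lie on chromosome 2 (hg19, 7017796 to 7038363 for RSAD2 and 6980684 to 7006766 for CMPK2), 11.0 kb apart.

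BST2 (tetherin) holds budding virions on the cell surface and was the most abundant of the 10 in every group. It had 402 FPKM in shTFEB ATRA and 140.0 FPKM in shScr ATRA, against 90.0 and 87.3 FPKM in vehicle cells labelled shTFEB and shScr. Among the 11052 genes this placed it at rank 191 in shTFEB ATRA, 442 in shScr ATRA, 820 in vehicle cells labelled shTFEB and 843 in shScr vehicle. The shTFEB ATRA level was 2.87 times that in shScr ATRA. BST2 lies on chromosome 19 (hg19, 17513755 to 17516384).

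SAMD9 and SAMD9L are related proteins that restrict poxviruses and repress translation, and inherited variants in both are known from myeloid disorders. SAMD9 had 143 FPKM in shTFEB ATRA and 38.3 FPKM in shScr ATRA, against 5.75 and 6.43 FPKM in vehicle cells labelled shTFEB and shScr. SAMD9L had 99.0 FPKM in shTFEB ATRA and 23.9 FPKM in shScr ATRA, against 0.490 and 0.531 FPKM in vehicle cells labelled shTFEB and shScr. Their shTFEB over shScr ratios under ATRA were 3.74 and 4.14. In vehicle SAMD9 was detected and SAMD9L was under 1 FPKM, although they are adjacent on chromosome 7 (hg19, 92728826 to 92747336 and 92759368 to 92777680), 12.0 kb apart. How fragments that fit both members of such a related pair were placed is not given in the sources used here.

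DDX60 encodes a helicase reported to assist RNA sensing. It had 36.0 FPKM in shTFEB ATRA and 10.4 FPKM in shScr ATRA, against 0.255 and 0.298 FPKM in vehicle cells labelled shTFEB and shScr. EPSTI1 encodes an interferon-induced protein described in macrophage activation and breast cancer. It had 58.3 FPKM in shTFEB ATRA and 7.92 FPKM in shScr ATRA, against 0.0856 and 0.00438 FPKM in vehicle cells labelled shTFEB and shScr. The lower bound deposited for EPSTI1 in shScr vehicle is 0, so no plain ratio against that group is read as a result, and the log2 values of EPSTI1 against it below rest on the added 1 FPKM. Under ATRA the shTFEB over shScr ratio was 3.47 for DDX60 and 7.36 for EPSTI1. DDX60 lies on chromosome 4 (hg19, 169137442 to 169239958) and EPSTI1 on chromosome 13 (hg19, 43460524 to 43566407).

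XAF1 antagonises the apoptosis inhibitor XIAP. It had 30.1 FPKM in shTFEB ATRA and 0.882 FPKM in shScr ATRA, against 0.620 and 0.297 FPKM in vehicle cells labelled shTFEB and shScr. Like MX1, it reached 1 FPKM in shTFEB ATRA alone. Its shTFEB over shScr ratio under ATRA, 34.1, was the highest of the 10. XAF1 lies on chromosome 17 (hg19, 6659156 to 6678964).

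The comparisons below use log2((FPKM + 1)/(FPKM + 1)), in which the added 1 FPKM reduces the ratios of low genes. The words rose and fell are kept for values of at least 1 in size, which marks a 2-fold difference and tests nothing. The comparisons share groups with each other, so their values are given side by side and are not independent.

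In shTFEB cells all 10 genes rose past the mark in ATRA, against 11.5% of the 11052 genes. The count includes the 6 genes under 1 FPKM in vehicle, which passed the minimum only through their ATRA values. The log2 ratio of ATRA to vehicle was highest for SAMD9L at 6.07, EPSTI1 at 5.77, RSAD2 at 5.56 and CMPK2 at 5.39, and lowest for MX2 at 1.56 and MX1 at 1.78. The median of the 10 was 4.65, against -0.13 over all genes compared. Without the added FPKM, EPSTI1 was 681 times, RSAD2 226 times, SAMD9L 202 times and DDX60 141 times as high in ATRA as in vehicle, each against a vehicle level under 1 FPKM.

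In shScr cells 6 of the 10 genes rose in ATRA, against 12.5% of all genes compared. They were SAMD9L (log2 ratio 4.02), EPSTI1 (3.15), DDX60 (3.13), CMPK2 (2.80), SAMD9 (2.40) and RSAD2 (2.33). Of these, SAMD9L, EPSTI1, DDX60 and RSAD2 were under 1 FPKM in vehicle and passed the minimum only through their ATRA values. With coding models alone CMPK2 was at -0.65, and with 5 FPKM added in place of 1 RSAD2 was short of the mark at 0.96. The other genes were positive but short of the mark, with 0.70 for MX1, 0.68 for BST2, 0.54 for XAF1 and 0.32 for MX2. The median was 2.37, against -0.15 over all genes. Low levels bear on MX1 and XAF1 here: their plain ratios of ATRA to vehicle were 5.25 and 2.97, whereas those of the well-detected BST2 and MX2 were 1.60 and 1.26.

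**Figure D2:**
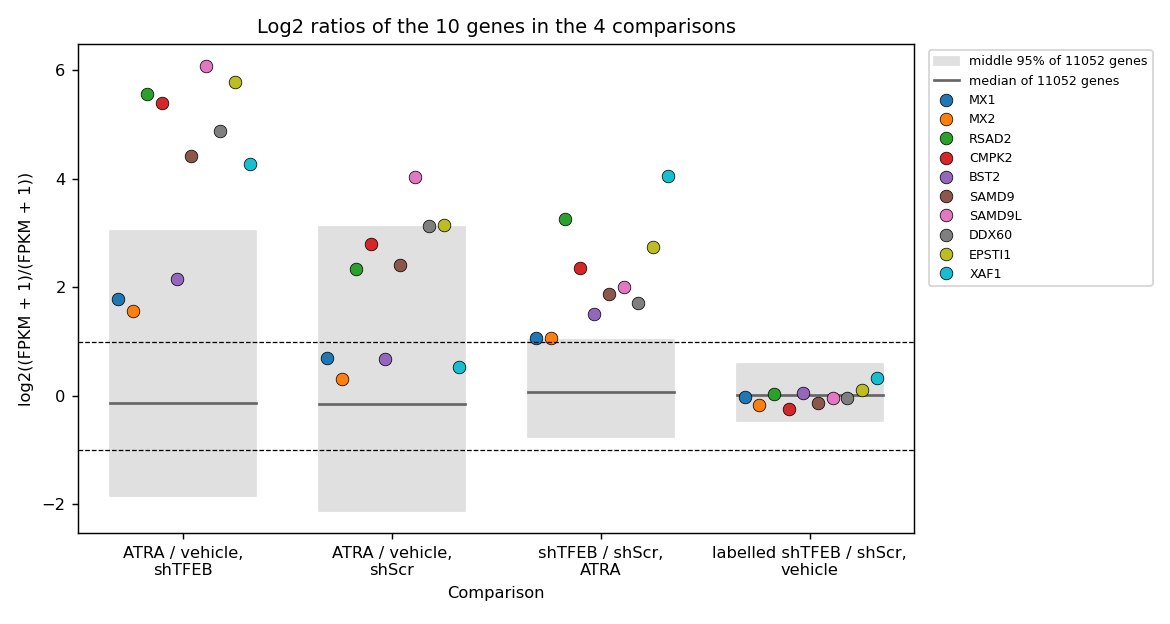
Log2 ratios of the 10 genes (points) in 4 comparisons, with the middle 95% (grey band) and median (line) of all 11052 genes compared and dashed lines at the 2-fold mark. All 10 genes lie above the mark in shTFEB cells with ATRA and in shTFEB against shScr under ATRA, 6 lie above it in shScr cells with ATRA, and none does in vehicle.

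Under ATRA the level in shTFEB cells exceeded that in shScr cells by more than the mark for all 10 genes, against 2.67% of the genes compared (295 genes). The count includes MX1 and XAF1, which passed the minimum only through shTFEB ATRA. The log2 ratios were 4.05 for XAF1, 3.25 for RSAD2, 2.73 for EPSTI1, 2.35 for CMPK2, 2.01 for SAMD9L, 1.88 for SAMD9, 1.70 for DDX60, 1.52 for BST2, and 1.07 for both MX2 and MX1. The median was 1.94, against 0.06 over all genes. By this ratio XAF1 ranked 30, RSAD2 44, EPSTI1 67 and CMPK2 87 of 11052, and MX2 and MX1 ranked 245 and 250. MX1 and MX2 thus lay just past the mark, and both were short of it in some of the alternative settings given at the end. The deposited bounds of shTFEB and shScr ATRA did not overlap for any of the 10, as for 2.19% of all genes, counted where they were also past the mark. These bounds are not read as confidence intervals: the FPKM lay inside its own bounds for only 4 of the 10 genes in shTFEB ATRA and for 8 in each other group, and for BST2 and MX2 it lay outside in every group.

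In vehicle none of the 10 passed the mark between cells labelled shTFEB and shScr cells, against 1.06% of all genes that were higher and 0.787% that were lower. The log2 ratios ran from -0.25 for CMPK2 to 0.32 for XAF1, with a median of -0.03 against 0.02 over all genes. Of the 10, 4 were higher and 6 lower by any amount in the group labelled shTFEB, and the share of all genes in each direction was not counted. The well-detected genes differed little, with plain ratios of 1.03 for BST2, 0.883 for MX2, 0.894 for SAMD9 and 0.794 for CMPK2. Without the added FPKM 2 of the 10 passed the mark, against 1.91% of the genes above 0 in both groups: XAF1, with a plain ratio of 2.09 between levels under 1 FPKM, and EPSTI1, whose level in shScr vehicle is too low for a ratio. The deposited bounds did not overlap for XAF1, EPSTI1 and MX2, 3 of the 10, against 36.8% of the genes compared. As TFEB was not lower in this group, the comparison cannot be read as one of reduced against normal TFEB.

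The ATRA response, as log2 ratio, was larger in shTFEB than in shScr cells for each gene. The difference was 3.73 for XAF1, 3.22 for RSAD2, 2.62 for EPSTI1, 2.59 for CMPK2, 2.04 for SAMD9L, 2.02 for SAMD9, 1.75 for DDX60, 1.47 for BST2, 1.25 for MX2 and 1.08 for MX1. All 10 reached 1, against 2.42% of the genes compared, and their median was 2.03 against 0.04. MX1 and XAF1, which are in this count, passed the minimum only through shTFEB ATRA. The difference for EPSTI1 turned to -1.41 without the added FPKM, because of its 0.00438 FPKM in shScr vehicle. None of these differences was tested, as each group has 1 value.

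The order of the genes by response differed between comparisons. SAMD9L and DDX60, which had large ATRA responses in shScr cells, ranked in the middle by shTFEB over shScr ratio, whereas XAF1 had a small response in shScr cells and the largest ratio between the hairpins. Profiles were also set against each other as the Euclidean distance between log2(FPKM + 1) values over the 4 groups, each centred on the gene's mean. The closest pairs were MX1 and MX2 at 0.321, MX1 and BST2 at 0.361, and CMPK2 and DDX60 at 0.487. The distances of MX1 depend on the added 1 FPKM, as its levels are low. Its plain ratios of ATRA to vehicle were 18.7 in shTFEB and 5.25 in shScr cells. Those of MX2 were 3.05 and 1.26, and those of BST2 were 4.47 and 1.60. From the median profile of the 10, MX2 lay farthest at 2.86, then MX1 at 2.58, BST2 at 2.31 and XAF1 at 1.67.

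Among the other genes compared, the 5 nearest to that median profile were RIGI at 0.222, USP18 at 0.268, CYP4F3 at 0.454, HERC6 at 0.603 and EPAS1 at 0.622. RIGI, a cytoplasmic RNA sensor, had 178 and 35.6 FPKM in shTFEB and shScr ATRA, and 5.99 and 6.81 FPKM in the vehicle groups labelled shTFEB and shScr. USP18, which removes ISG15 from proteins and dampens the interferon receptor, had 93.9 and 12.9 FPKM in shTFEB and shScr ATRA, and 2.31 and 2.16 FPKM in vehicle. RIGI, USP18 and HERC6 are interferon-induced genes, whereas CYP4F3, a leukotriene hydroxylase of neutrophils, and EPAS1, a hypoxia-inducible factor, are not usually listed as such. CYP4F3 had 21.6 and 3.58 FPKM in shTFEB and shScr ATRA, and 0.134 and 0.0859 FPKM in vehicle. This likeness rests on 4 values per gene.

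The 10 genes have 19 transcript models between them, and 5 genes have more than 1. For CMPK2 the model NR_046236, annotated as noncoding, took 85.6% of the FPKM in shTFEB ATRA, 100% in shScr ATRA, 86.7% in vehicle cells labelled shTFEB and 82.5% in shScr vehicle. The coding model NM_207315 had 21.6 FPKM in shTFEB ATRA and was listed at 0 in shScr ATRA, against 0.342 and 0.568 FPKM in vehicle cells labelled shTFEB and shScr. Counted by coding models alone, the log2 ratio of CMPK2 to ATRA in shScr cells was -0.65 in place of 2.80, so its direction there depends on how fragments were divided between models.

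The makeup of XAF1 differed between groups as well as its level. The coding model NM_017523 had 16.9 FPKM in shTFEB ATRA and 0.111 FPKM in shScr ATRA, against 0.245 FPKM in vehicle cells labelled shTFEB and 0 in shScr vehicle. The noncoding model NR_046398 held 26.5% of XAF1 in shTFEB ATRA and 87.5% in shScr ATRA, against 60.5% and 100% in vehicle cells labelled shTFEB and shScr. Outside shTFEB ATRA these shares divide less than 1 FPKM. EPSTI1 kept most of its FPKM in NM_033255, with 50.1 FPKM in shTFEB ATRA and 6.27 FPKM in shScr ATRA, and SAMD9 kept all of it in NM_017654 in every group but the vehicle group labelled shTFEB.

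**Figure D3:**
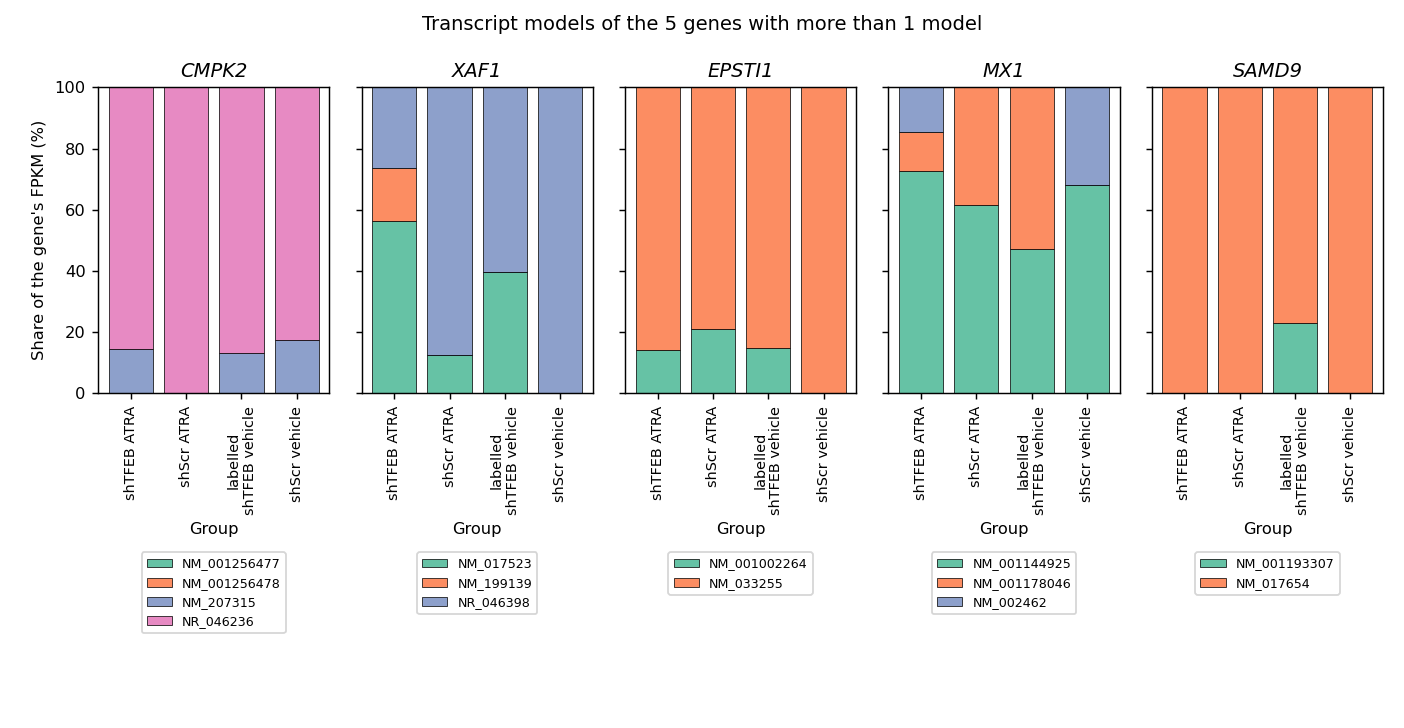
Share of each gene's FPKM (%) by RefSeq model in the 4 groups, for the 5 genes with more than 1 model, as stacked bars of 1 value each. In CMPK2 the noncoding model NR_046236 takes at least 82.5% in each group, and in XAF1 the coding models together exceed the noncoding model NR_046398 only in shTFEB ATRA.

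Around the 10 loci, within 100 kb, the tables hold 41 other features, 27 of them with a symbol and 14 assembled models without one. Of these, 11 averaged at least 1 FPKM and 11 were listed at 0 in every group. Under ATRA 3 were at least 2-fold higher in shTFEB than in shScr cells and 0 were lower. The highest by level was DDX60L, 37.9 kb from DDX60, with 91.5 and 43.7 FPKM in shTFEB and shScr ATRA, and 2.15 and 3.39 FPKM in the vehicle groups labelled shTFEB and shScr, a log2 ratio under ATRA of 1.05. The other 2 were assembled models close to CMPK2, with log2 ratios of 1.62 and 1.13 at 3.78 and 2.93 FPKM in shTFEB ATRA. These 2 models overlap each other. No share over all features was counted beside the 3, and most of the 41 averaged under 1 FPKM. Expressed neighbours such as DNAJC15 beside EPSTI1, at 7.35 and 5.50 FPKM in shTFEB and shScr ATRA, and MVB12A beside BST2, at 10.2 and 12.6 FPKM, did not reach the mark.

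**Figure D4:**
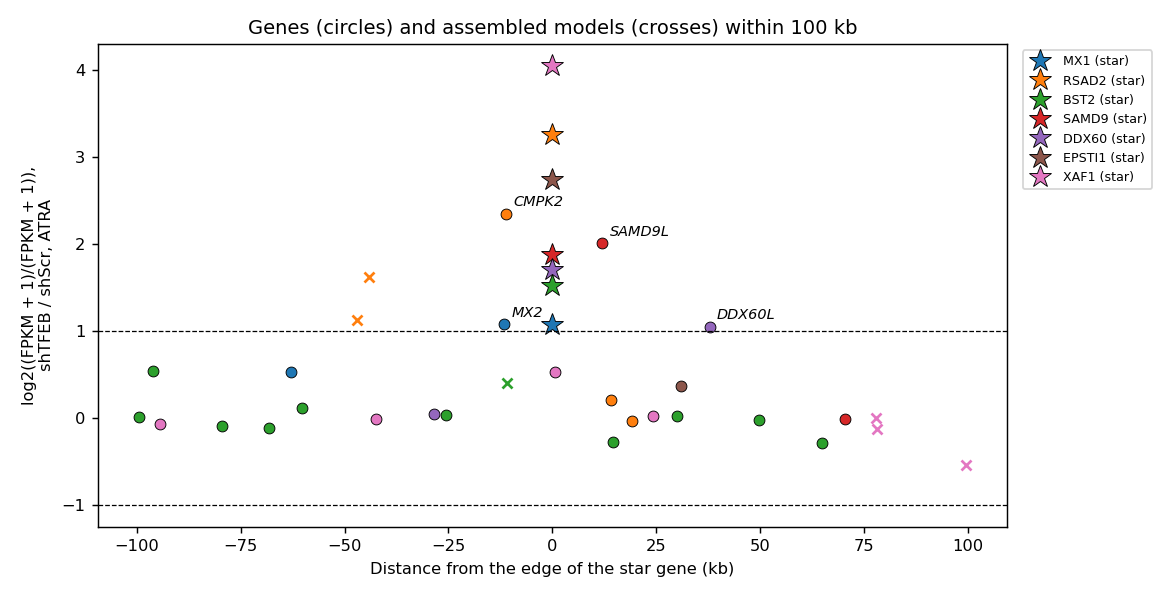
Log2 ratio of shTFEB to shScr under ATRA against distance (kb) for 7 of the 10 genes (stars) and the features within 100 kb of each that are above 0 in at least 1 group (circles for symbols, crosses for assembled models), with dashed lines at the 2-fold mark. CMPK2, MX2, SAMD9L and DDX60L lie above the upper line beside RSAD2, MX1, SAMD9 and DDX60, and the other features lie between the lines except for 2 assembled models near RSAD2 and CMPK2.

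The interferon pathway was followed from ligand to target with lists chosen knowing earlier results of these data, so their direction is no independent evidence. The 21 interferon ligand genes were near the floor: none averaged 1 FPKM, so none was compared. Of them, 16 were above 0 in shTFEB ATRA, 9 in shScr ATRA, 5 in vehicle cells labelled shTFEB and 5 in shScr vehicle, with summed FPKM of 3.95, 0.916, 0.248 and 0.440. IFNB1, the early type I interferon, had 0.754 FPKM in shTFEB ATRA and 0.135 FPKM in shScr ATRA, was listed at 0 in vehicle cells labelled shTFEB and had 0.0202 FPKM in shScr vehicle. IFNA13, with 1.13 FPKM in shTFEB ATRA and 0.306 FPKM in shScr ATRA, was the only ligand to reach 1 FPKM in any group, but the IFNA genes are near-identical copies whose shared fragments make single values uncertain. IFNG was listed at 0 in every group.

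Of the receptor, kinase and ISGF3 genes, STAT2 was at 93.1 and 37.2 FPKM in shTFEB and shScr ATRA, a log2 ratio of 1.30, and at 7.16 and 6.23 FPKM in the vehicle groups labelled shTFEB and shScr. IRF9 was at 42.9 and 33.4 FPKM in shTFEB and shScr ATRA (0.35), and neither receptor chain, IFNAR1 nor IFNAR2, passed the mark. Among 5 other interferon regulatory factors 1 was higher by the mark under ATRA in shTFEB cells, against 2.67% of all genes compared. It was IRF7, with 59.9 and 25.1 FPKM in shTFEB and shScr ATRA, and the list median was 0.42.

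Of 7 feedback inhibitors 3 were higher under ATRA in shTFEB cells (ISG15 at 3.10, USP18 at 2.77 and SOCS1 at 1.04), with a median of 0.29. Of 10 nucleic acid sensors compared, 6 were higher, among them RIGI at 2.29, ZBP1 at 2.20, IFIH1 at 1.57 and TLR3 at 1.44, with a median of 1.33. STING1 had a log2 ratio of -0.43. Of the 5 OAS and RNase L genes 4 were higher (median 2.38), and so were all 5 IFIT genes (2.55), which bind foreign RNA. Of 28 further antiviral and interferon-induced genes 21 were higher and 0 lower, with a median of 1.36, led by IFI44 at 5.22, ISG20 at 4.43, IFI44L at 4.27 and GBP1 at 3.06. These counts are of genes past the mark, which 2.67% of all 11052 genes compared were on the higher side. None of 12 reference genes passed the mark in either direction (median 0.15). In vehicle no gene of these lists was higher by the mark in cells labelled shTFEB than in shScr cells, against 1.06% of all genes. IFI16 alone was lower by it, at -1.43, against 0.787%. UBE2L6 came closest on the higher side, at 0.89. The added 1 FPKM reduces differences between low genes here, which went both ways. In cells labelled shTFEB and shScr, OAS2 had 0.340 and 0.0235 FPKM, and HERC6 had 0.695 and 0.955 FPKM.

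**Figure D5:**
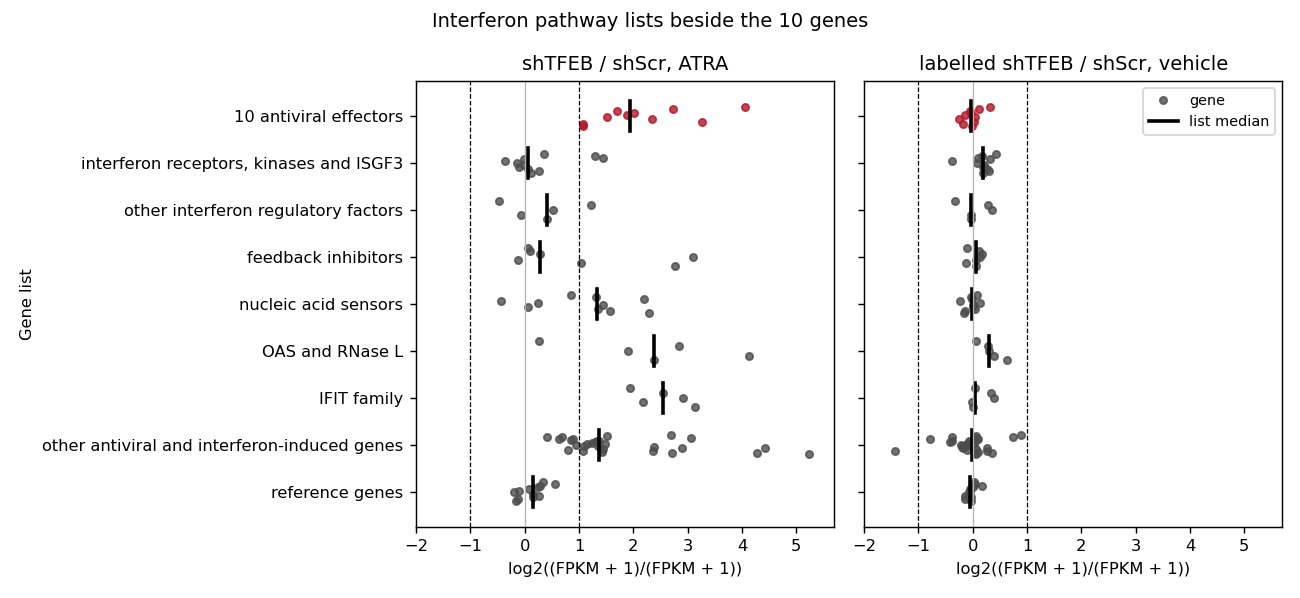
Log2 ratios of shTFEB to shScr under ATRA (left) and of cells labelled shTFEB to shScr in vehicle (right), for the 10 antiviral effectors (red) and each gene list (grey points for genes, black bars for medians), with dashed lines at the 2-fold mark. Under ATRA the 10 genes, the OAS and the IFIT lists lie mostly to the right of the mark, whereas in vehicle a single gene passes it, to the left.

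Markers of other cell types were measured beside these results. Plasmacytoid dendritic cells, a main source of type I interferon, are marked by 5 genes whose summed level was 5.14 and 3.83 FPKM in shTFEB and shScr ATRA, and 2.08 and 1.40 FPKM in the vehicle groups labelled shTFEB and shScr. Only IL3RA reached 1 FPKM, and GZMB was listed at 0 in every group. Of the T and NK markers NKG7 was abundant, at 111 and 168 FPKM in shTFEB and shScr ATRA and 26.4 and 23.6 FPKM in vehicle, while CD3E did not exceed 0.0539 FPKM. CD3D was at 0.368 and 0.514 FPKM in shTFEB and shScr ATRA, and 2.71 and 3.76 FPKM in vehicle. Of the B cell markers, CD79A was at 19.7 and 18.5 FPKM in shTFEB and shScr ATRA, and 2.09 and 2.41 FPKM in vehicle, whereas CD79B was at 0.208 and 0.551 FPKM in ATRA and 7.19 and 8.85 FPKM in vehicle. MS4A1 of B cells, and HBB, HBA1 and PF4 of the erythroid and platelet lineages, were listed at 0 in every group. ITGA2B had 2.75 FPKM in shTFEB ATRA and 0.521 FPKM in shScr ATRA. Summed over 5 T and NK markers the levels were 112 and 169 FPKM in shTFEB and shScr ATRA, and 29.4 and 27.7 FPKM in the vehicle groups labelled shTFEB and shScr. Over 4 B cell markers they were 20.5 and 19.4 FPKM in shTFEB and shScr ATRA, and 9.59 and 11.4 FPKM in vehicle. Over 5 fibroblast and epithelial markers, of which COL1A2 was listed at 0 in every group and KRT18 at 13.9 and 22.3 FPKM in ATRA and 27.2 and 29.7 FPKM in vehicle, they were 16.6 and 24.2 FPKM in shTFEB and shScr ATRA, and 33.3 and 34.1 FPKM in vehicle. The part of these cell types in the results was not tested.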

How the data were processed

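RNA of NB4 cells in 4 groups was compared. Per the labels' protocols, total RNA was made into TruSeq libraries. The FPKM values, with a lower and an upper bound, were made by the authors and deposited as 1 table per group of 65986 transcript models. Per the submitters' processing notes, TopHat, Cufflinks, Cuffdiff and hg19 were used. Versions, and how the 2 samples of a group were combined, are not given in the sources used here. The design also names wild-type NB4, not analysed here.

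RefSeq accessions were matched to symbols (39841 of 41159, 96.8%) through a RefSeq gene table (GRCh38.p14), from which only names were taken. Each symbol's FPKM and bounds are sums over its models, and coordinates are those of the files (hg19), counted from 1. Genes with a mean of at least 1 FPKM (11052) were compared as log2((FPKM + 1)/(FPKM + 1)), with no further scaling, and a value of 1 in size was the mark. The calculation was tested on simulated data. Absolute depth is not given here. Relative depth rests on at least 14917 models listed at 0, of which 93.1% to 93.7% lay within 0.2% of the median ratio. Python 3.11.15, numpy 2.4.6, pandas 2.3.3 and matplotlib 3.10.9 were used.

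The members and lists were chosen with earlier results of these data known. Named genes were the 10 members and TFEB, neighbours within 100 kb (counted, with paralogs and adjacent genes named), the 5 genes nearest to the median profile, up to 4 members of each list with the largest change, and markers of cell types. IRF9, IFNAR1, IFNAR2, IFNG and STING1, and the flat neighbours, were named outside this rule after their values were seen. Some genes that the rule names are not reported here. Alternatives were other pseudocounts, filters and scalings, the highest model, models with status OK, and bounds that do not overlap.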

Additional observations from a re-analysis of the deposited data

How the results depend on the processing

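No paired analysis was possible because the tables hold 1 value per group, and leaving out a replicate was not run for the same reason. Over the alternatives the number of the 10 genes past the 2-fold mark was 5 to 8 for ATRA in shScr cells, 9 to 10 for ATRA in shTFEB cells, 8 to 10 for shTFEB against shScr under ATRA and 9 to 10 for the difference of responses. In vehicle it was 2 (XAF1 and EPSTI1) without a pseudocount, against 0. MX1 was not compared with a mean of at least 5 FPKM or with the highest model, so those counts are out of 9 genes. With a pseudocount of 5 FPKM, RSAD2 (0.96) was short of the mark for ATRA in shScr cells, MX1 (0.44) and MX2 (0.99) were short of it in shTFEB against shScr under ATRA, MX1 was short of it for ATRA in shTFEB cells (0.63) and in the difference of responses (0.44), and with upper-quartile rescaling MX2 was (0.97). Signs were reversed for CMPK2 in shScr ATRA with coding models alone (-0.65), since its coding model is listed at 0 there, and for EPSTI1 in the difference of responses without a pseudocount (-1.41).

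The number of all genes past the mark moved more. With a pseudocount of 5 FPKM it was 1822 for ATRA in shScr cells (3060 in the analysis as reported), 1377 for ATRA in shTFEB cells (2429), 271 for shTFEB against shScr under ATRA (470), 118 in vehicle (204) and 312 for the difference of responses (474). With a mean of at least 5 FPKM it was 309 under ATRA, 119 in vehicle and 307 for the difference. In vehicle it was also 335 with a pseudocount of 0.1 FPKM, 308 with none, 122 with bounds apart, 102 with coding models alone and 93 without genes at 0. For the difference it was 293 with coding models alone and 271 without genes at 0. Coding models alone, no genes at 0, midpoints of bounds and the unmatched XAF1 models were alternatives chosen after seeing the data. Median-of-ratios rescaling moved the median of all genes by 0.15 for ATRA in shScr cells and by 0.13 in shTFEB cells, and the higher and lower genes in shScr cells to 1612 and 1256 (56.2% higher) from 1384 and 1676 (45.2%). In shScr ATRA the 10 genes lay 0.47 to 4.17 above the all-gene median.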

Other observations

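At XAF1 the tables hold 2 further RefSeq models, NR_046396 and NR_046397, whose accessions were not matched to a symbol. NR_046396 was listed at 0 in shTFEB ATRA, at 0.182 FPKM in shScr ATRA and at 0 in both vehicle groups, and NR_046397 was listed at 0 in every group. FBXO39, 0.588 kb from XAF1, had 0.463 FPKM in shTFEB ATRA and 0.0168 FPKM in shScr ATRA, against 0.0225 FPKM in vehicle cells labelled shTFEB and 0 in shScr vehicle. These models and FBXO39 were picked out after their values were seen.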
